A study of Xenopus laevis with 6 samples.

Results

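The RIO kinases are represented by 6 of the 44958 gene features counted in whole Xenopus laevis embryos, namely riok1.L, riok1.S, riok2.L, riok2.S, riok3.L and riok3.S. They were taken by name, as every feature that reads riok1, riok2 or riok3 once a final .L or .S is removed. This frog is allotetraploid, and the suffixes mark homeologs, L for a copy on the longer and S for a copy on the shorter chromosome of a homeologous pair. The family was chosen by the rise of riok3 counts after knockdown of Neil2 in these same libraries, so the values of riok3 in that contrast are given as a description, without a test. riok1 and riok2 came with it through their family name.

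Neil2 is a DNA glycosylase of base excision repair, which removes oxidized bases from DNA. Embryos were injected at the 1-cell stage with 40 ng of a control Morpholino (control MO) or of a neil2 Morpholino (neil2 MO) and grown to stage 23, an early tailbud stage. Each library was made from polyadenylated RNA of a pool of 6 whole embryos, with 3 libraries per group, numbered 1 to 3 in both. No mutant allele is given in the labels, and the control group was itself injected with an oligonucleotide. A Morpholino is a synthetic antisense oligonucleotide, and the neil2 MO was designed to block translation, so the count of the neil2 transcript does not measure the knockdown. Whether the pools of a group came from separate clutches is not stated in the labels, so p-values measure the spread between these pools. Total counts ranged from 11534725 to 24034094 reads per library. The oligonucleotides that set the groups apart are shown because they are the only difference in treatment, written 5′ to 3′, with capitals marking the letters complementary to the start codon in the neil2 MO.
Control MO: cctcttacctcagttacaatttata
neil2 MO: gtctgactgtgggaccttccggCAT

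RIO kinases are atypical protein kinases found from archaea to vertebrates. In yeast and human cells Rio1 (RIOK1) and Rio2 (RIOK2) bind the precursor of the small ribosomal subunit and act in its last maturation steps in the cytoplasm. RIOK3 belongs to animals, binds the same precursor in human cells, and is also known there as a regulator of antiviral RNA sensing. In mouse it is known for a role in maturing red blood cells.

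Both homeologs of riok3 were higher in every neil2 MO library than in any control MO library, while the counts of riok1 and riok2 overlapped between the groups. The fold change was 4.52 for riok3.S and 2.21 for riok3.L in the DESeq2 fit over all features, against 1.33 or less for the other 4 features. The S homeolog of riok3 went from the minor to the major source of riok3 reads. Levels are given as CPM, the counts of a feature in every 1000000 counts of its library. CPM are not corrected for transcript length, so they are compared between libraries and not between genes. In pools of whole embryos, fewer cells of a type and less RNA per cell cannot be told apart, and the same holds for more of either.

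riok3.S had 35.1, 16.8 and 20.5 CPM in control MO replicates 1 to 3. In neil2 MO embryos it had 146, 68.4 and 101 CPM in replicates 1 to 3. Replicate 1 was the highest library in both groups, and even the highest control lay well below the lowest neil2 MO library. The means were 24.1 ± 9.67 and 105 ± 39.1 CPM (SD, n = 3), and the log2 fold change was 2.18 ± 0.29 (SE). Among the 275 features called raised in neil2 MO embryos it stood at rank 24 by fold change.

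riok3.L had 42.3, 28.7 and 24.8 CPM in control MO replicates 1 to 3. Its neil2 MO values were 90.8, 50.2 and 63.6 CPM. Here the groups came closer, because control MO replicate 1 (42.3 CPM) lay just below neil2 MO replicate 2 (50.2 CPM). The means were 31.9 ± 9.17 and 68.2 ± 20.7 CPM (SD, n = 3). The log2 fold change of riok3.L was 1.15 ± 0.25 (SE), rank 98 among the raised features.

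**Figure D1:**
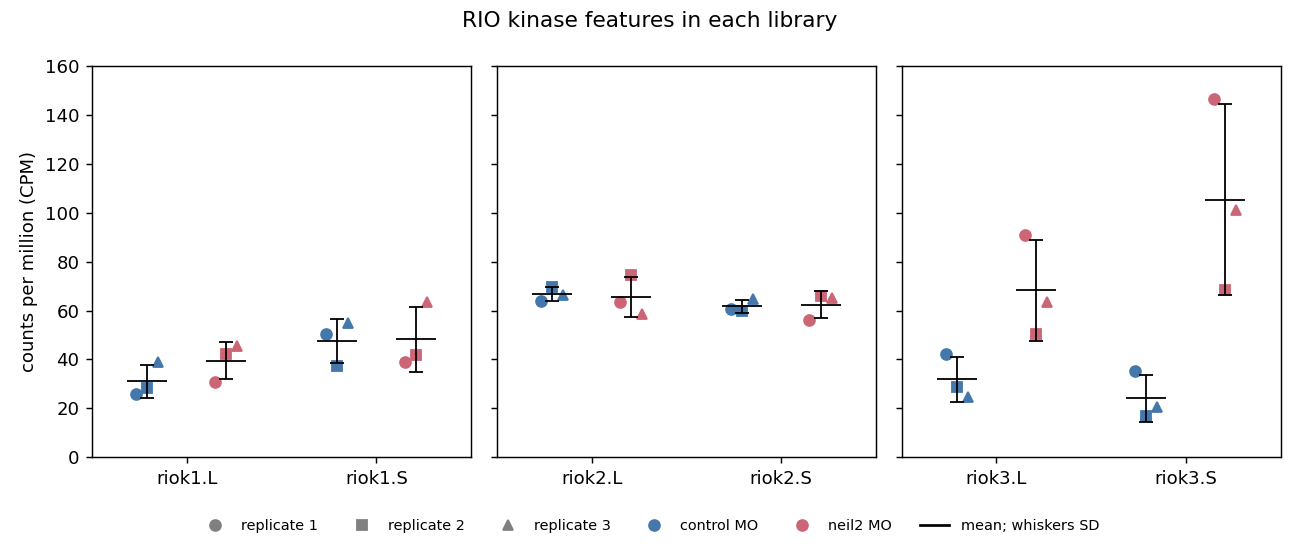
CPM of the 6 RIO kinase features in each library (linear axis from 0), with control MO in blue, neil2 MO in red, marker shape for the replicate number, and black lines for the mean ± SD of 3 libraries. For riok3.L and riok3.S every red point lies above every blue point, whereas riok1 and riok2 overlap between groups.

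Libraries of equal number were also compared, because replicate 1 was high for riok3 in both groups. For riok3.S the neil2 MO library had 4.17, 4.07 and 4.92 times the CPM of its same-numbered control in replicates 1 to 3. For riok3.L these ratios were 2.15, 1.75 and 2.56. The ratio of riok3.S exceeded that of riok3.L in each of the 3 pairs. In neil2 MO embryos both homeologs kept the same order of libraries, with replicate 1 highest and replicate 2 lowest, whereas among controls only replicate 1 took the same place.

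The spread within a group was described as well, from the same libraries by which riok3 was chosen, so it is not separate support. The coefficient of variation of riok3.S over the control MO libraries was 40.0%, against 4.95% from read counting alone, and 95.8% of the 16089 features averaging 100 or more counts varied less. In riok3.L it was 28.7%, and 87.3% of features varied less. riok2, in contrast, was among the steadiest genes in control embryos, with 4.19% for riok2.L and 4.03% for riok2.S, close to the 3.07% and 3.20% of read counting. riok1.L and riok1.S lay between, with 22.2% and 18.9%, where the median over features was 14.6%. In neil2 MO embryos the order was similar, with 37.2% for riok3.S, 30.3% for riok3.L, 19.2% and 27.5% for riok1.L and riok1.S, and 12.7% and 8.80% for riok2.L and riok2.S. There riok1.S lay close to riok3.L, with 86.1% and 89.7% of features varying less, and riok2.L was mid-range, with 42.6%. With 3 libraries per group each of these coefficients is itself imprecise and is given as a description.

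riok1 encodes the kinase whose human counterpart acts with the endonuclease NOB1 at the end of 18S rRNA processing and also brings substrates to the arginine methyltransferase PRMT5. riok1.L had 25.9, 28.4 and 38.8 CPM in control MO replicates 1 to 3 and 31.0, 42.4 and 45.4 CPM in neil2 MO replicates 1 to 3. Its highest control library lay above its lowest neil2 MO library, so the groups overlapped. The log2 fold change was 0.41 (95% interval -0.04 to 0.86), with a DESeq2 adjusted p-value of 0.600. riok1.L was higher in each same-numbered pair, by 0.32, 0.65 and 0.25 on the log2 scale. The share of all features higher in every pair was not computed, so nothing is read from this. With the replicate number as a block its log2 fold change was 0.41 ± 0.15 (SE), with adjusted p-values of 0.0889 (DESeq2) and 0.0509 (edgeR), so it passed the p-value threshold but not the fold threshold of 0.5. riok1.S had 50.4, 37.5 and 54.8 CPM in control MO and 39.1, 42.0 and 63.4 CPM in neil2 MO embryos. It was lower in the replicate 1 pair and higher in the other pairs, and its log2 fold change was 0.07 (95% interval -0.37 to 0.52, DESeq2 adjusted p-value 0.988). A rise beyond 1.81-fold for riok1.L or 1.43-fold for riok1.S lies outside these intervals, which come from the fit without the replicate number. With the block the log2 fold change of riok1.S was 0.06 ± 0.15 (SE) in DESeq2.

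riok2 encodes the kinase that in yeast and human cells accompanies the pre-40S particle from the nucleus into the cytoplasm. riok2.L had 63.9, 69.5 and 66.5 CPM in control MO and 63.3, 74.6 and 58.5 CPM in neil2 MO replicates 1 to 3. The neil2 MO libraries therefore lay on both sides of the controls. riok2.S had 60.5, 60.0 and 64.5 CPM in control MO and 56.1, 66.0 and 65.2 CPM in neil2 MO embryos. Again the groups overlapped. The log2 fold changes were 0.03 (95% interval -0.32 to 0.38) for riok2.L and 0.07 (-0.25 to 0.40) for riok2.S, with DESeq2 adjusted p-values of 0.993 and 0.986. Within these intervals riok2.L and riok2.S may have changed by up to 1.30-fold and 1.32-fold upwards. The intervals come from the fit without the replicate number. With it as a block the log2 fold changes in DESeq2 were 0.02 ± 0.13 for riok2.L and 0.07 ± 0.13 for riok2.S (SE).

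Read against all features, 2 of the 6 RIO kinase features were called raised and 0 lowered by DESeq2, where a call needed an adjusted p-value under 0.1 and a log2 fold change beyond 0.5 in size. Of the 23457 features tested, 1.17% were called raised and 1.12% lowered, or 2.29% in all. Both homeologs were called raised in 0.208% of the 7199 pairs with both copies tested, and riok3 was one of those 15 pairs. The neil2 MO libraries all lay above the controls in 6.13% of features tested, which include riok3.L and riok3.S, and below them in 10.3%, which include no RIO kinase. As riok3 was chosen for this rise, nothing is read from its place against these shares. The shares of features above and below the controls use CPM, and were not recomputed with the scaling of DESeq2. Under that scaling the median log2 fold change over all features tested was 0.01. Without the replicate number, the lowest unadjusted p-value of the riok1 and riok2 features was 0.0733, for riok1.L. As a description of the same values, edgeR without the replicate number called riok3.S but not riok3.L, at log2 fold changes of 2.16 and 1.13, where 0.298% of features were called raised. With the replicate number as a block, riok3.L and riok3.S were the RIO kinase features called raised in DESeq2, among 3.14% of features raised and 2.74% lowered, and in edgeR, among 4.11% raised.

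**Figure D2:**
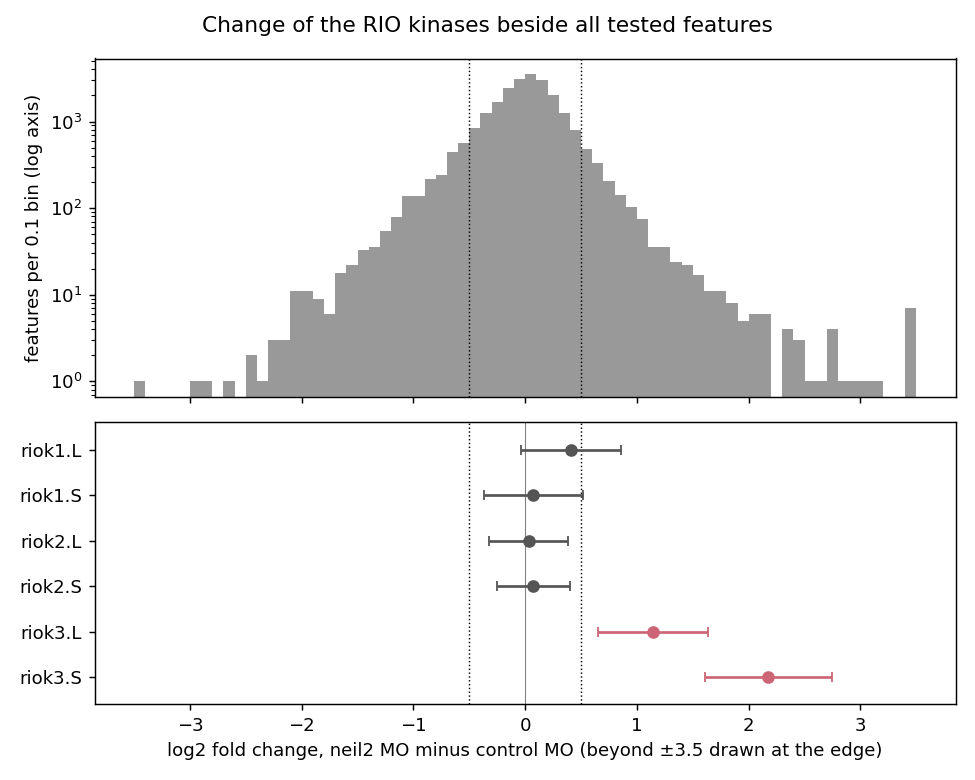
The upper panel counts the tested features by log2 fold change (neil2 MO minus control MO, bins of 0.1, logarithmic vertical axis) and the lower panel gives each RIO kinase feature with its 95% interval from DESeq2, in red where the feature was called. Dotted lines mark the threshold of 0.5 in either direction. riok3.S at 2.18 and riok3.L at 1.15 lie in the right tail. In this fit, made without the replicate number, the intervals of the riok1 and riok2 features include 0. With the replicate number as a block, which is not drawn, riok1.L stood at 0.41 ± 0.15 (SE).

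To ask whether the copies of each gene changed alike, S reads were taken as a percentage of the summed L and S reads of a gene in each library. In control MO embryos riok3.S gave 45.4%, 36.9% and 45.3% of riok3 reads in replicates 1 to 3, with Wilson 95% intervals of 42.9 to 47.8%, 33.5 to 40.5% and 41.1 to 49.6% that cover counting error only. In neil2 MO embryos it gave 61.7%, 57.7% and 61.4%, with intervals of 60.3 to 63.1%, 55.6 to 59.7% and 59.9 to 62.9%. Thus L was the larger source in every control library and S in every neil2 MO library. As riok3 was chosen on these libraries, nothing is read from this switch, and the share of pairs with such a switch was not computed. The mean share was 42.5 ± 4.85% and 60.3 ± 2.26% (SD, n = 3), a difference of 17.7 percentage points. Of the gain in riok3 CPM, 69.1% came from the S and 30.9% from the L copy.

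The log2 ratio of L to S reads of riok3 fell by 1.04 with a standard error of 0.18, and this ratio too belongs to the contrast by which riok3 was chosen. It is described here, and no support is read from a test of it. The log2 fold changes with the block in DESeq2 were 2.18 for riok3.S and 1.14 for riok3.L.

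The copies of riok1 and riok2 shifted less. riok1.S gave 66.1%, 56.9% and 58.5% of riok1 reads in control MO and 55.8%, 49.8% and 58.3% in neil2 MO replicates 1 to 3. The groups overlapped, with means of 60.5 ± 4.90% and 54.6 ± 4.36% (SD, n = 3). The log2 ratio of L to S differed by 0.35 (95% interval -0.14 to 0.84, limma adjusted p-value 0.650). For riok2 the S share was 48.6%, 46.3% and 49.2% in control MO and 47.0%, 46.9% and 52.7% in neil2 MO embryos. The ratio differed by -0.05 (95% interval -0.40 to 0.30, limma adjusted p-value 0.954). Over 7285 homeolog pairs limma called 0.426% at an adjusted p-value below 0.1, and 2.81% with the replicate number as a block. riok1 and riok2 were called in neither, and with the block their ratios differed by 0.35 ± 0.15 and -0.05 ± 0.11 (SE). As a description, riok3 was not called without the block or in any of the 6 fits without 1 library. It was called with the block. In control MO embryos riok1 leaned to the S copy, riok2 was nearly even and riok3 leaned to the L copy, while the median pair had an S share of 44.4%. These are shares of reads, since the lengths of the copies in the annotation used for counting were not used here, and reads that match both copies were left uncounted.

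**Figure D3:**
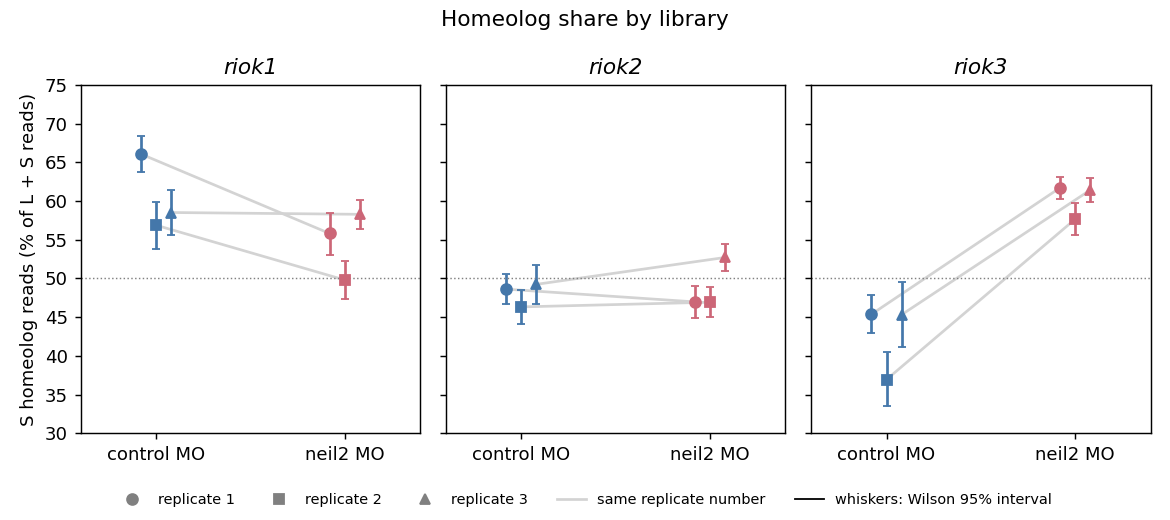
Reads of the S homeolog as a percentage of L plus S reads for each gene and library (vertical axis from 30 to 75%), with whiskers for the Wilson 95% interval of counting error and grey lines joining libraries of equal number. All 3 riok3 lines cross the dotted 50% line upwards, from a mean of 42.5% to 60.3%, while the riok1 and riok2 points of the groups overlap. As riok3 was chosen on these libraries, nothing is read from this crossing.

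Summed over both copies, riok3 had 77.4, 45.5 and 45.3 CPM in control MO and 237, 119 and 165 CPM in neil2 MO replicates 1 to 3. The mean rose from 56.1 ± 18.5 to 174 ± 59.7 CPM (SD, n = 3), and the log2 fold change of the summed counts was 1.68 ± 0.26 (SE). For riok1 the sums were 78.6 ± 14.01 and 87.7 ± 19.5 CPM, and the log2 fold change was 0.21 ± 0.21 (DESeq2 adjusted p-value 0.906). For riok2 they were 128 ± 3.47 and 128 ± 11.2 CPM, and the log2 fold change was 0.05 ± 0.16 (DESeq2 adjusted p-value 0.995). All RIO kinase reads together made up 263 ± 19.5 CPM in control MO and 389 ± 42.1 CPM in neil2 MO embryos. The part of them that came from riok3 was 27.8%, 18.9% and 16.8% in control MO replicates 1 to 3, and 55.6%, 34.5% and 41.5% in neil2 MO replicates 1 to 3. The groups did not overlap in this percentage, which weights each gene by its transcript length. As riok3 was chosen for its rise in these libraries, nothing is read from this. How often such percentages separate the groups in other gene families was not computed.

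Features whose pattern over the 6 libraries was most like riok3 were sought among 16259 other features that carried a gene symbol and averaged 50 or more counts. Likeness was the root mean square difference of log2(CPM + 0.5) after subtracting the mean of each feature, so that a small value means the same shape and the same size of change. Nearest to riok3.S were ccng1.S (0.21), which encodes cyclin G1, pidd1.L (0.26), which encodes a death domain adaptor of caspase-2 activation, ckap2.S (0.30), a spindle-associated protein, march8.S (0.32), a membrane-bound ubiquitin ligase, and ulk1.L (0.34), the kinase that starts autophagy. Their log2 fold changes were 1.96, 2.08, 2.504, 2.03 and 1.76. The closest of them, ccng1.S, had 46.5, 25.1 and 36.4 CPM in control MO and 159, 97.3 and 150 CPM in neil2 MO embryos, and so also had its lowest value in replicate 2 of each group.

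The nearest features to riok3.L were tp53inp1.L (0.12), rnf168.L (0.12), foxo3.S (0.15), p4ha2.S (0.15) and tekt2.L (0.16). In this set tp53inp1 encodes a stress-induced nuclear protein, rnf168 a ubiquitin ligase acting at DNA breaks, foxo3 a forkhead transcription factor, p4ha2 a collagen prolyl hydroxylase and tekt2 a protein of ciliary microtubules. Their log2 fold changes were 1.30, 0.97, 0.88, 1.10 and 1.21. The values of rnf168.L were 28.9, 17.8 and 18.8 CPM in control MO and 54.4, 30.7 and 38.7 CPM in neil2 MO embryos, and like riok3.L it was highest in replicate 1 of each group. The homeologs of riok3 differed from each other by 0.54. riok3.L stood at place 25 in the list for riok3.S, and riok3.S at place 1999 in the list for riok3.L. The features named above are closer by selection, and the measure includes the size of change, which differed between the homeologs. The riok1 and riok2 features differed from riok3.S by 1.07 to 1.19 and from riok3.L by 0.66 to 0.70. All these values describe the same 6 libraries, in which features that share a group difference are alike by construction.

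**Figure D4:**
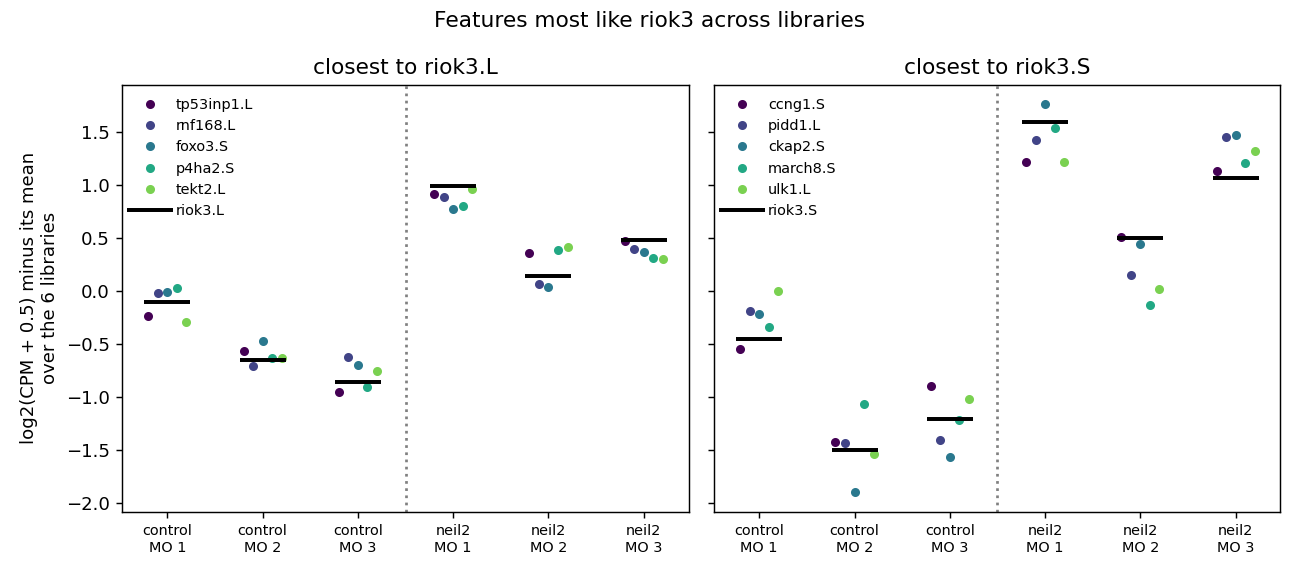
Centred log2(CPM + 0.5) in each of the 6 libraries for riok3.L (left) and riok3.S (right) as black bars, with the 5 features closest to each as coloured points. The root mean square difference from the bars, taken over the 6 libraries, was 0.12 to 0.16 on the left and 0.21 to 0.34 on the right. Single libraries can differ by more.

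Genes next to riok3 were examined because counting without strand cannot separate overlapping transcripts. In RefSeq gene order on the X. laevis v10.1 assembly, used here only for names and neighbours, neither riok3 homeolog overlapped any of the nearest 2 genes on either side, whereas riok1.L overlapped a pseudogene and riok2.L a protein-coding gene, neither matched to a counted feature. Next to riok3.L lay tmem241.L (log2 fold change -0.53 ± 0.34 SE) and npc1.L (0.43 ± 0.20), and beyond them cables1.L (-0.63 ± 0.80) and ankrd29.L (0.52 ± 0.71). Next to riok3.S lay cables1.S (-0.87 ± 0.72), and further out rbbp8.S (-1.13 ± 0.62) and ttc39c.S (-0.43 ± 0.26). DESeq2 called none of these, although cables1.L was too low to be given an adjusted p-value. The most highly counted was npc1.L, which encodes a lysosomal cholesterol transporter, and the DESeq2 adjusted p-value of npc1.L was 0.380. The gene directly on the other side of riok3.S, a long non-coding RNA, was not matched to a counted feature. Near riok1.L the genes dsp.L (0.09 ± 0.16) and snrnp48.L (0.05 ± 0.19) were not called. Around the riok2 homeologs, rgmb.L, cast.L, chd1.S and rgmb.S had log2 fold changes between -0.18 and 0.12, lix1.L and lix1.S had too few counts to be tested, and lnpep.S was called lowered (DESeq2 adjusted p-value 0.0158), as it fell by 2.83 at a mean of only 15.7 normalized counts. riok1.S was not matched by symbol and its neighbours were not used here.

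The maturation of the small ribosomal subunit, the shared task of the family, was then examined through 20 named factors, of which 17 were found as 24 features. Of 23 tested, 2 rose and 0 fell, where 1.17% of all features were raised and 1.12% lowered, with a median log2 fold change of 0.07 against 0.01 over all features tested. The risers were bysl.S, which encodes bystin, a factor of the pre-40S particle, and noc4l.L, a nucleolar assembly factor of that subunit. bysl.S had 69.7, 68.3 and 86.0 CPM in control MO and 106, 133 and 155 CPM in neil2 MO embryos, a rise of 0.87 on the log2 scale (DESeq2 adjusted p-value 0.00163). noc4l.L rose by 0.70 on the log2 scale (DESeq2 adjusted p-value 0.00505), whereas the log2 fold change of its partner noc4l.S was -0.08. Other factors of the particle, picked after their values were seen, were not called, with log2 fold changes of 0.02 for the endonuclease gene nob1.S, 0.07 for pno1.L, 0.06 for ltv1.L and 0.25 for tsr1.L. Over all uncalled features tested in the list, log2 fold changes ran from -0.35 for nop14.L to 0.40 for utp14a.L. Unadjusted p-values below 0.05 numbered 3 of 23 in DESeq2 and 5 of 24 with the block. In edgeR they numbered 3 of 24, and 7 of 24 with the block. edgeR without the replicate number called noc4l.L alone.

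Proteins of the small subunit itself were represented by 49 features, all tested. DESeq2 called 0 of them in either direction, 0 had an unadjusted p-value below 0.05, and edgeR called 0 as well, with 1 below 0.05. With the block DESeq2 and edgeR also called 0, each with 5 below 0.05. Over all features DESeq2 called 2.29%. Their median log2 fold change was 0.10. The most abundant, rpsa.S and rps2.L, had log2 fold changes of -0.02 and 0.07. In neil2 MO libraries the summed level of the list lay between 12537 and 15009 CPM, within the 12217 to 15786 CPM of the control libraries.

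The PRMT5 methylosome, in which human RIOK1 replaces another adaptor to present nucleolin for methylation, was represented by 11 features. DESeq2 called 0 of them, against 2.29% of all features, with 0 unadjusted p-values below 0.05 in DESeq2 and in edgeR and 1 in each with the block, and the median log2 fold change was 0.11. The nucleolin genes ncl.L and ncl.S, the most abundant of the list, had log2 fold changes of 0.08 and 0.07, and the splicing core genes snrpb.L and snrpd1.L had 0.06 and 0.36.

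Genes of antiviral RNA sensing, the pathway in which human RIOK3 is known to act, were low in these embryos. Their 14 features together reached only 29.0 to 32.9 CPM in control MO and 31.8 to 37.6 CPM in neil2 MO libraries, and 9 could be tested. DESeq2 and edgeR each called 0 of them, against 2.29% of all features in DESeq2, and each had 1 with an unadjusted p-value below 0.05. Named after its value was seen, irf3.S, which encodes an interferon regulatory factor, had 0.92, 0.255 and 0.607 CPM in control MO and 2.39, 1.16 and 1.12 CPM in neil2 MO embryos. For irf3.S this was a difference of 1.42 ± 0.63 (SE) on the log2 scale, and it was called raised in edgeR with the block but not in the other fits. tbk1.L and tbk1.S, which encode a kinase activating interferon transcription factors, had log2 fold changes of 0.42 ± 0.22 and 0.23 ± 0.28 (SE). The signalling adaptor gene traf3.L had 0.20 ± 0.27, and ifih1.L, which encodes the RNA sensor MDA5, had -0.46 ± 0.37.

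Genes that respond to DNA damage formed the last list, since the study measured riok3 together with several of them, some of which it chose on such embryos, so the list is not independent evidence of its direction. Of 41 features tested, 10 rose and 1 fell, where 1.17% of all features were raised and 1.12% lowered, with a median log2 fold change of 0.09, and 15 had an unadjusted p-value below 0.05. The largest rises were those of eda2r.L (2.80), a death receptor gene, ccng1.S (1.96), plk2.S (1.42), which encodes a polo-like kinase, and aen.L (1.37), a nuclease gene. The rise of eda2r.L had a SE of 0.78, with 37.1, 8.05 and 7.80 CPM in control MO replicates 1 to 3. Its call was lost in edgeR without the block. The same held in DESeq2 without control MO replicate 2 or 3, or without neil2 MO replicate 1 or 3. Named after its value was seen, the fall was that of mdm4.S, by 0.92 on the log2 scale, from 33.1, 35.3 and 30.5 CPM to 16.0, 14.1 and 20.4 CPM. Without neil2 MO replicate 1 only 6 of the list rose. Of the 10, 3 were also raised in edgeR, which included ccng1.S, and 1 fell in both tools.

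The make-up of the pools was checked with markers of blood precursors, neural plate, neural crest, muscle, epidermis, endoderm and notochord. Transcripts from each set of markers were found. In the blood list the features of gata1 and of the globins hba1, hbd, hbg1 and hbg2 each stayed at or below 1.36 CPM in every library, whereas alas2.L had 1.60 to 3.53 CPM, slc4a1.L 33.3 to 57.4 CPM and slc4a1.S 19.1 to 45.4 CPM. The summed blood list was 173 to 186 CPM in control MO and 162 to 198 CPM in neil2 MO libraries. This sum joins features that moved in opposite directions. The log2 fold changes lay between -0.60 and -0.16 for the lmo2 and tal1 features. They were -0.55 for epor.L, -0.13 for alas2.S, 0.18 for alas2.L and 0.36 for slc4a1.L. Of the 9 blood features tested, slc4a1.S, which encodes an anion exchanger, was the only one called raised, by 0.82 on the log2 scale. That call was lost in edgeR without the block and in 4 of the 6 fits without 1 library. DESeq2 called 0 features of the other 6 marker lists, against 2.29% of all features, where unadjusted p-values below 0.05 were 2 for neural plate, 0 for neural crest, 2 for muscle, 0 for epidermis, 1 for endoderm and 0 for notochord. With the block in DESeq2 they were 4 of 13 for neural plate, 1 of 10 for neural crest and 5 of 10 for muscle. For epidermis they were then 4 of 12, for endoderm 2 of 11 and for notochord 1 of 10. edgeR without the replicate number called 0 in all 7 lists, and the DESeq2 fit with the block lowered rax.L and rax.S of the neural plate and lmo2.L of the blood list. edgeR with the block lowered these and also tal1.L of the blood list and des.1.L of the muscle list. In DESeq2 des.1.L had a log2 fold change of -0.50, was not called with all libraries and was called lowered without neil2 MO replicate 1, while rax.L and rax.S were called lowered without neil2 MO replicate 2. Summed levels nonetheless moved with the groups in 2 of the lists, with neural plate markers at 640 to 673 CPM in control MO and 481 to 580 CPM in neil2 MO, and muscle markers at 3558 to 4029 and 3046 to 3159 CPM. In the neural plate list all 13 features had negative log2 fold changes, from -0.60 for rax.S to -0.06 for neurog2.S. Their median was -0.24, against 0.01 over all features tested. In the muscle list the most abundant genes, actc1 and des.1, and also tnni2 had log2 fold changes between -0.50 and -0.10. Those of myf5 and myod1 lay between 0.04 and 0.21. Of all features tested, 10.3% lay below the controls in every neil2 MO library. That is a share of single features in CPM, and the share for sums over lists of this size was not computed. Whether either shift had a part in the rise of riok3 was not tested.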

How the data were processed

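The deposited values are raw counts of reads per gene feature, one table per library. Libraries were amplified in 12 PCR cycles and read for 51 cycles per the labels. The study's methods give a different number of read cycles for the frog libraries and only a minimum number of embryos per batch. The labels were used here for both. Per the study's methods, the authors aligned single-end reads with STAR 2.5.4b to the X. laevis v9.2 assembly with at most 2 mismatches, and counted them on the JGI annotation with featureCounts 1.5.1 at default settings. Counting was without strand, and reads matching several places or genes were dropped, which leaves near-identical stretches of homeologs uncounted.

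CPM are counts divided by the library total. All tests were fitted over the whole table. The main test was the Wald test of DESeq2 1.42.0 in R 4.3.3 with independent filtering, the tool and thresholds of the study's methods (adjusted p-value below 0.1, absolute log2 fold change above 0.5). Adjusted p-values are Benjamini-Hochberg. The L to S ratio was tested with limma 3.58.1 on log2 ratios of normalized counts (pseudocount 0.5) for pairs averaging 10 or more counts in each copy. edgeR 4.0.16 (quasi-likelihood, TMM) was the alternative. DESeq2, edgeR and the limma ratio test, each without the replicate number, were first tried on simulated data. In these the libraries were drawn independently, without pairing, and the fits with a block were not tried. Other alternatives were a replicate block, leaving out each library, TMM scaling inside DESeq2, dropping its filter or setting a fixed count minimum, summing homeologs, and other pseudocounts and pair filters. edgeR with the block was added after seeing the data.

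Replicate numbers come from the titles. Deviations from the group means correlated between same-numbered libraries with r = 0.587, 0.569 and 0.634 over 23651 features, so the numbers were taken to pair the libraries. No pair of libraries matched within sampling noise. The members and gene lists were chosen with earlier results of these data known. Named genes were the 6 members, the 5 features closest to each riok3 homeolog, neighbours, and up to 4 per list (largest called changes, otherwise most abundant). Beyond this rule, noc4l.S, other pre-40S factors, mdm4.S, irf3.S and the blood, neural plate and muscle markers with values or calls were named after their values were seen.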

Additional observations from a re-analysis of the deposited data

How the results depend on the processing

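riok3 was chosen on these libraries, so its stability over settings is described and supports nothing. riok3.L passed the thresholds in DESeq2 and not in edgeR without the block (log2 fold change 1.13). Leaving out 1 library, values ranged from 1.87 to 2.53 for riok3.S and from 0.90 to 1.38 for riok3.L, and for both the lowest was without neil2 MO replicate 1 and the highest without control MO replicate 1. riok1 and riok2 features were called in none of the fits. With the replicate block riok1.L stood at 0.41, under the threshold of 0.5, although its DESeq2 adjusted p-value was 0.0889. Without single libraries the small values changed sign for riok1.S (-0.16 to 0.21) and riok2.L (-0.10 to 0.12), and those of riok1.L (0.28 to 0.60) and riok2.S (0.01 to 0.15) did not. The change of the log2 L to S ratio ranged from -1.12 to -0.87 for riok3, 0.18 to 0.46 for riok1 and -0.10 to 0.064 for riok2, and the change of the S share from 14.9 to 19.1, -7.68 to -3.06 and -1.11 to 1.78 percentage points.

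The difference in the riok3 ratio was -1.04 also with the replicate block and with a minimum of 50 counts on average per copy, as neither setting can alter it. riok3 was not among the pairs called in the main fit and was among them with either setting. Nothing is read from this, as riok3 was chosen on these libraries. Pairs called numbered 31, and 56 with that stricter filter, 205 with the block and 0 to 2 without 1 library. Features called raised and lowered numbered 275 and 262, and 71 and 70 with edgeR, 693 and 604 with the block and 980 and 1255 with edgeR and the block, added after seeing the data. Without 1 library they ranged from 142 to 311 and from 118 to 274, and were 152 and 118 without control MO replicate 1 and 142 and 153 without neil2 MO replicate 1. The block moved riok3.L past the thresholds in edgeR, and changed no call of riok1 or riok2. The causes were not tested.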
